A study of Homo sapiens with 6 samples.

Results

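The genes described here encode 10 proteins of the U5 small nuclear ribonucleoprotein (snRNP) and of the U4/U6.U5 tri-snRNP, the particle that brings the catalytic RNAs to the spliceosome. They were listed by the known function of their proteins, with earlier results of these data known, and make up 10 of the 58302 genes in the files. Of these, 7 belong to U5 (PRPF8, EFTUD2, SNRNP200, SNRNP40, DDX23, PRPF6 and TXNL4A) and 3 to U4/U6 (PRPF3, PRPF4 and PRPF31). RNA was sequenced from SK-N-BE(2), a human neuroblastoma cell line with amplified MYCN, in 3 samples transfected with a negative control small interfering RNA (NC) and 3 transfected with siPrp19, a small interfering RNA against PRPF19 (Prp19). All 6 samples were transfected cells of the same line, with no other modification in the labels. The sample labels give 72 h of knockdown, and the methods of the study give a shorter time. The samples are called biological replicates by the study, and each is named by the replicate number, 1 to 3, of its label.

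In the U5 snRNP, PRPF8 holds the RNA core of the spliceosome, EFTUD2 is a GTPase bound to it, and SNRNP200 is the helicase that unwinds U4 from U6. DDX23 is the helicase that displaces U1 from the 5′ splice site, and PRPF6 bridges U5 and U4/U6. PRPF3, PRPF4 and PRPF31 sit on the U4/U6 duplex, and PRPF31 binds U4 together with SNU13. Prp19 is the ubiquitin ligase of the complex named after it, which joins the spliceosome as U4 leaves and stabilises U5 and U6, and PRPF3 is a known substrate of it. Inherited variants of PRPF8, PRPF6, PRPF31, PRPF3, PRPF4 and SNRNP200 are known causes of retinitis pigmentosa.

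The values are FPKM as deposited, which are fragments per kilobase of exon after a scaling between samples. From them 19058781 to 21943936 reads on genes were recovered in the NC samples and 22273026 to 24181789 in the siPrp19 samples. The members rested on 413 reads (SNRNP40, NC replicate 2) to 18252 reads (SNRNP200, siPrp19 replicate 1). PRPF19 had 53.1, 53.1 and 64.9 FPKM in NC replicates 1, 2 and 3. After siPrp19 it had 21.8, 28.5 and 33.6 FPKM, a mean of 49.0% of NC, and the groups did not overlap. Its log2 fold change of −1.04 (standard error 0.19) had adjusted p = 0.9999 by limma without the block, the main test used here, so that test did not call the targeted gene either. Limma with the replicate number as a block gave adjusted p = 0.190 (0.0176 among genes averaging 5 FPKM or more), and voom with the block gave 1.03e-11. All 11 adrenergic neuroblastoma markers averaged 1 FPKM or more, and none of 5 immune or 3 endothelial markers did (summed levels of 0.697 to 1.49 and 0.227 to 0.40 FPKM). Of the 6 fibroblast markers 5 did, with a summed level of 129.7 to 151.4 FPKM with NC and 120.0 to 147.8 FPKM with siPrp19, and 1 of 4 epithelial markers did, with sums of 1.43 to 2.00 and 2.01 to 2.70 FPKM. Their part in the results was not tested.

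The starts of 4 members are shown because they carry the comparison: PRPF8 and EFTUD2, which changed in opposite directions in the paired count test given later, and SNRNP200 and PRPF6, which had the highest levels. Each line holds the 250 bases before the gene's start in RefSeq on GRCh38.p14, 5′ to 3′ along the gene. Capitals mark matches, on either strand, to CACGTG (the E-box bound by MYC proteins), CCGGAAG (the ETS site), GGGCGG (the GC box), CCAAT or TATAAA.
PRPF8 (chr17:1684868-1685117, minus strand): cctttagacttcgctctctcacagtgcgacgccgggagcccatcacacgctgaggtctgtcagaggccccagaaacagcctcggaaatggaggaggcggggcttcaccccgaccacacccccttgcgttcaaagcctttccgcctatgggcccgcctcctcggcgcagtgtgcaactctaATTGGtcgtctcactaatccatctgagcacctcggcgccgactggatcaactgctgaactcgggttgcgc
EFTUD2 (chr17:44899446-44899695, minus strand): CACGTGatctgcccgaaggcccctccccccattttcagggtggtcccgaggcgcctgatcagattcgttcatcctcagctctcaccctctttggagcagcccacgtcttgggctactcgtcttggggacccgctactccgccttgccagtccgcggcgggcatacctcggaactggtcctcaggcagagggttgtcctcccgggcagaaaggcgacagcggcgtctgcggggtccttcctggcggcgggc
SNRNP200 (chr2:96305547-96305796, minus strand): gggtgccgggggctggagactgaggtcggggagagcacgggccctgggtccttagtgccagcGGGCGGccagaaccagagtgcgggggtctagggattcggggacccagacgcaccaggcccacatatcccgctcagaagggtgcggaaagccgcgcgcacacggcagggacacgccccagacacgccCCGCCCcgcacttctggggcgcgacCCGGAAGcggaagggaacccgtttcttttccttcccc
PRPF6 (chr20:63980882-63981131, plus strand): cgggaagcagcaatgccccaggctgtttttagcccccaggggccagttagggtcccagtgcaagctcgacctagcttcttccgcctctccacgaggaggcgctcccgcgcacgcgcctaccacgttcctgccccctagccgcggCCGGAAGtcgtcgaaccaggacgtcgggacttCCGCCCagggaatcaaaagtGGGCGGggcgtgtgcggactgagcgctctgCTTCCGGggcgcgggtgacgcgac
No matches overlapped. PRPF8 had a single CCAAT match, on the opposite strand and 70 bases before the start. EFTUD2 had CACGTG at 250 bases before this start, while the window of its other RefSeq start held GGGCGG. GENCODE, used here for gene positions, starts EFTUD2 at 44899662, so most of the printed EFTUD2 window lies inside the gene as annotated there. The PRPF8 window also reaches into the gene by the GENCODE start, 1684882. SNRNP200 and PRPF6 held CCGGAAG, at 37 bases and at 106 and 24 bases before the start, and each also held GGGCGG on both strands. RefSeq windows were found for 9 of the 10 members, 11 windows in all, since EFTUD2 and TXNL4A have more than 1 start. GGGCGG was in 7 of the 11 windows (42.6% of 35093 windows of all genes), CCAAT in 4 (32.0% of all), CCGGAAG in 2 (8.52%), CACGTG in 1 (6.34%) and TATAAA in 0 (10.7%). The matches describe letters in these windows and not binding.

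All 10 genes were expressed in every sample. Genes averaging 1 FPKM or more across all samples were tested, 14462 in all, and among them the NC means of the members lay between percentile 60.4 (SNRNP40) and percentile 96.4 (PRPF6). In FPKM, which divides by all annotated exon bases of a gene, PRPF6 had 64.7 ± 10.4 (SD, n = 3) and SNRNP200 64.2 ± 8.46 with NC. PRPF8 had 35.8 ± 2.56 and DDX23 34.6 ± 3.62 FPKM. The U4/U6 proteins PRPF3 and PRPF4 had 22.1 ± 3.63 and 21.6 ± 2.59 FPKM, and EFTUD2 had 17.6 ± 1.44 FPKM. The lowest were PRPF31 with 14.4 ± 1.17, TXNL4A with 11.3 ± 1.81 and SNRNP40 with 8.12 ± 2.39 FPKM. In this order the NC ranges of PRPF6 and SNRNP200, of PRPF8 and DDX23, of PRPF3 and PRPF4, of PRPF31 and TXNL4A, and of TXNL4A and SNRNP40 overlapped.

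**Figure D1:**
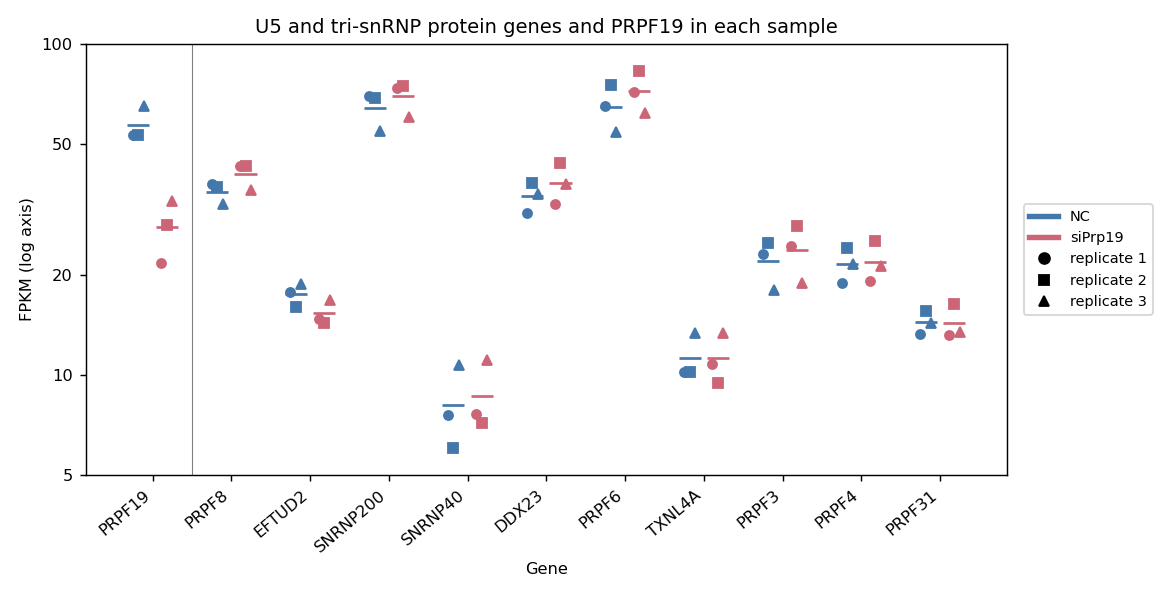
FPKM on a log axis of PRPF19 and the 10 U5 and tri-snRNP genes in each of the 3 NC (blue) and 3 siPrp19 (red) samples, with the replicate number as the symbol and the group mean as a line. PRPF19 is the only gene shown whose groups do not overlap, and the 10 members span 6.04 to 82.6 FPKM.

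The order depended on the length used. The annotated exons of EFTUD2 cover 10375 bases, against 4548 bases in its principal transcript, and 14 of its 26 annotated transcripts retain an intron. Those of SNRNP40 cover 3881 bases against 1597, and those of PRPF3 5373 against 2433. PRPF6 has 1 annotated transcript, of 3044 bases. Per length of the principal transcript, a scale chosen after the data were seen, SNRNP200 stood at 97.9 ± 12.9 (SD, n = 3) in NC and above PRPF6 (64.7 ± 10.4) in 3 of 3 NC samples. EFTUD2 moved from 17.6 to 40.1 ± 3.29 and PRPF3 from 22.1 to 48.9 ± 8.01. PRPF8 stood at 54.6 ± 3.91 and DDX23 at 57.8 ± 6.03. The NC range of PRPF3 overlapped that of PRPF8, while EFTUD2 stayed below PRPF8 in every NC sample. On this scale TXNL4A was lowest, with 16.8 ± 2.70, and its NC range overlapped that of PRPF31 (18.1 ± 1.47). The scale assumes that every read of a gene came from the principal transcript, and the FPKM files do not tell spliced from intron-retaining RNA. Changes between the groups were the same on either scale.

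**Figure D2:**
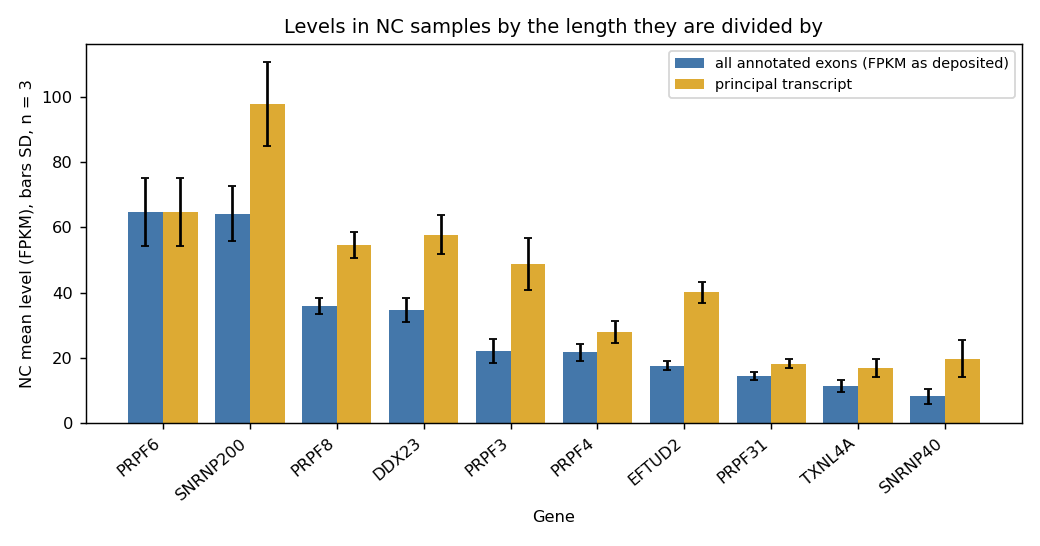
Mean level of the 10 genes in the 3 NC samples (bars, with SD) per length of all annotated exons, which is the deposited FPKM (blue), and per length of the principal transcript (yellow). EFTUD2 rises from 17.6 to 40.1 and SNRNP200 from 64.2 to 97.9, while PRPF6 stays at 64.7.

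The gene models also limit what some values hold. For PRPF31, 32.0% of the exon bases are shared with the antisense genes TFPT and AC245052.4. TFPT had 9.17, 9.16 and 7.83 FPKM with NC and 8.06, 9.89 and 8.48 FPKM with siPrp19, with no common direction in the pairs. For PRPF4, 5.76% are shared with CDC26, for EFTUD2 5.19% with CCDC103 and HIGD1B, and for PRPF8 1.38% with AC130343.2. CCDC103 was listed at 0 in all 6 samples. Whether strand was used in counting is not given in the sources used here, so reads of such partners cannot be told apart. Of the words of 75 bases in the principal transcripts, 1.70% for PRPF3, 0.919% for SNRNP40 and 0.423% for SNRNP200 occur in a transcript of another gene. For the other members the share was 0. Opposite-strand words were not searched, so bases shared with the antisense genes above are not in these shares.

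Samples with siPrp19, where PRPF19 RNA averaged 49.0% of NC, were compared with NC. The question was whether the genes of the particle Prp19 works with changed. With siPrp19, 7 of the 10 members had a log2 fold change above 0 and 3 below, with a median of 0.10 against −0.0040 over all genes tested. By limma on log2(FPKM + 0.1), 0 of 10 had a false discovery rate (FDR, Benjamini-Hochberg over all genes tested) under 0.05, as had 0% of the 14462 genes. At an unadjusted p under 0.05 there were 0 of 10 members and 225 of the 14462 genes by limma. Limma voom without the block also gave 0 genes at the FDR. For 0 of 10 members were the groups apart, against 2.77% of genes with siPrp19 higher and 2.84% with siPrp19 lower. Same-numbered NC and siPrp19 samples deviated together, so each member was also compared within pairs. PRPF8, SNRNP200, SNRNP40, DDX23, PRPF6 and PRPF3 were higher with siPrp19 in 3 of 3 pairs (6 of 10, against 19.2% of all genes), and EFTUD2 was lower in 3 of 3 (1 of 10, against 21.3%). When limma took replicate number as a block, 0 of 10 members and 0% of genes passed the FDR. In that fit 5 of 10 members and 2265 of the 14462 genes had an unadjusted p under 0.05. Limited to genes averaging 5 FPKM or more, the same blocked limma fit passed 1.57% of genes and 0 of 10 members. When voom was run on reads recovered from the FPKM, with the block, 965 of 13602 genes (7.09%) passed, and among them were 2 of the 10 members.

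**Figure D3:**
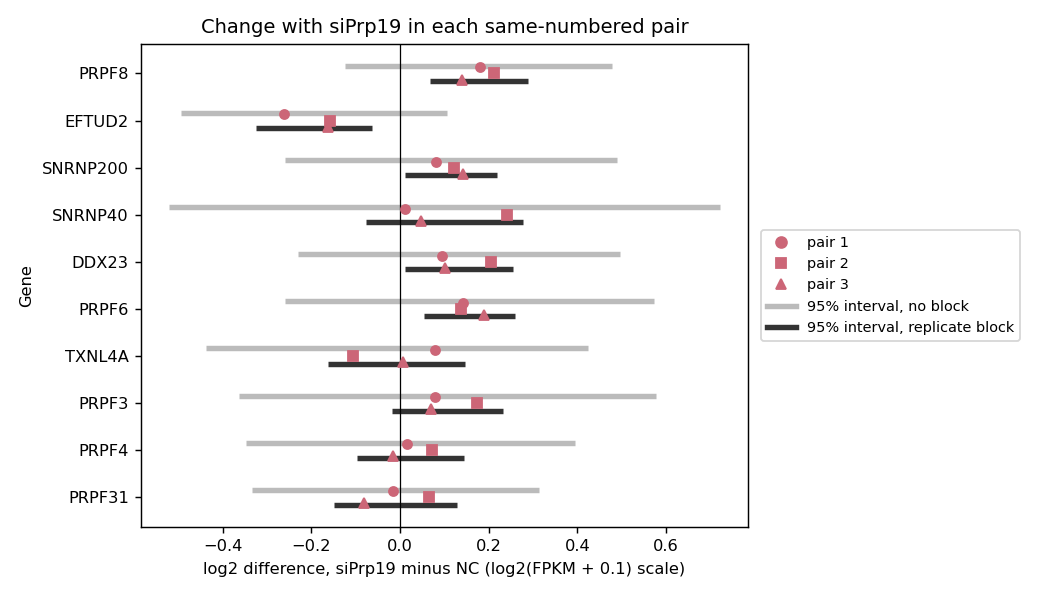
Difference between siPrp19 and NC on the log2(FPKM + 0.1) scale for each gene, in pairs 1, 2 and 3 of same-numbered samples (red symbols), with limma's 95% intervals without (grey) and with (black) the replicate block. EFTUD2 lies left of 0 in every pair, and PRPF8 and PRPF6 lie right of 0, between 0.14 and 0.21.

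These 2 members, which bind each other in U5, changed in opposite directions. PRPF8 (ENSG00000174231, chromosome 17 from 1650629 to 1684882 on GRCh38, minus strand), the scaffold of the catalytic core, had 37.6, 36.9 and 32.9 FPKM in NC replicates 1, 2 and 3. It had 42.7, 42.8 and 36.3 FPKM in the siPrp19 replicates. Replicate 3 was the lowest of each group, and siPrp19 replicate 3 fell below NC replicates 1 and 2, so the groups overlapped. The mean was 113% of NC, with a log2 fold change of 0.18 (standard error 0.13, 95% interval −0.12 to 0.48, adjusted p = 0.9999 by limma). The exact two-sided permutation test of 3 against 3 samples gave p = 0.30, where the smallest possible is 0.10. Blocking on replicate number narrowed the interval to between 0.067 and 0.29 (limma adjusted p = 0.211), and voom with the block gave an adjusted p of 0.0242 (2.67% of genes passed this test as higher).

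EFTUD2 (ENSG00000108883, chromosome 17 from 44849943 to 44899662, minus strand), the U5 GTPase that regulates SNRNP200, had 17.8, 16.0 and 18.9 FPKM with NC. With siPrp19 it had 14.8, 14.4 and 16.9 FPKM. Here replicate 3 was the highest of each group, and only siPrp19 replicate 3 reached the range of the NC samples. The mean was 87.4% of NC, with a log2 fold change of −0.19 (standard error 0.13, 95% interval −0.49 to 0.11, adjusted p = 0.9999 by limma, exact two-sided permutation p = 0.20). With the block the interval was −0.32 to −0.064 and limma's adjusted p was 0.219, and voom with the block gave 0.0233 (4.43% of genes passed it as lower). Voom with the block kept these calls with replicate numbers 1 and 2 alone (adjusted p = 0.0129 for PRPF8 and 0.0134 for EFTUD2). It lost them with numbers 1 and 3 (0.194 and 0.0731) and with numbers 2 and 3 (0.215 and 0.362). Over all genes these fits passed 1230, 634 and 267 of 13602, in the same order. The log2 fold change in them was 0.20, 0.16 and 0.18 for PRPF8 and −0.21, −0.21 and −0.16 for EFTUD2. The ratio of PRPF8 to EFTUD2 in FPKM, formed after the values were seen and not tested, was 2.12, 2.30 and 1.74 with NC and 2.88, 2.98 and 2.15 with siPrp19.

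SNRNP200, the helicase that frees U6 from U4, had 69.5, 68.7 and 54.4 FPKM with NC and 73.5, 74.7 and 60.0 FPKM with siPrp19. It was slightly higher in each pair, by 0.082, 0.12 and 0.14 on the log2 scale, and replicate 3 was lowest in each group. Its log2 fold change of 0.11 (standard error 0.16) gave adjusted p = 0.9999 by limma and 0.152 by voom with the block. PRPF6, the bridge between U5 and U4/U6, had 64.9, 75.1 and 54.2 FPKM with NC and 71.7, 82.6 and 61.8 FPKM with siPrp19. The change in pairs was 0.14, 0.14 and 0.19, nearly as large as for PRPF8, with 0.0662 as the adjusted p by voom with the block and 0.218 by limma with the block. DDX23, the helicase that hands the 5′ splice site from U1 to U6, had 30.8, 37.9 and 35.2 FPKM with NC and 32.9, 43.7 and 37.7 FPKM with siPrp19. Replicate 2 was highest in both groups. The log2 fold change was 0.16 for PRPF6 and 0.13 for DDX23, where voom with the block gave an adjusted p of 0.134.

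SNRNP40 and TXNL4A, the WD40 protein and the thioredoxin-like protein of U5, had the lowest levels in FPKM. SNRNP40 had 7.57, 6.04 and 10.7 FPKM with NC and 7.63, 7.16 and 11.1 FPKM with siPrp19. Its change was 0.011, 0.24 and 0.048 on the log2 scale in pairs 1, 2 and 3, so that pair 2, where NC had 413 reads, held most of it. TXNL4A had 10.2, 10.2 and 13.4 FPKM with NC and 10.8, 9.49 and 13.4 FPKM with siPrp19, with no common direction in the pairs. The log2 fold change of TXNL4A was −0.0076, and limma with the block gave a 95% interval of −0.16 to 0.15.

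Of the U4/U6 proteins, PRPF3, the substrate of Prp19, had 23.3, 25.0 and 18.1 FPKM with NC and 24.6, 28.2 and 19.0 FPKM with siPrp19. The difference was 0.11 on the log2 scale (standard error 0.20), higher in 3 of 3 pairs, with an adjusted p of 0.364 by limma with the block. PRPF4, which binds PRPF3, had 19.0, 24.2 and 21.6 FPKM with NC and 19.2, 25.4 and 21.4 FPKM with siPrp19. PRPF31 had 13.3, 15.6 and 14.3 FPKM with NC and 13.2, 16.4 and 13.5 FPKM with siPrp19. Neither had a common direction in the pairs, and their log2 fold changes were 0.024 and −0.011. With the block, the 95% interval of the log2 fold change by limma was −0.096 to 0.15 for PRPF4 and −0.15 to 0.13 for PRPF31. The groups of all 8 members other than PRPF8 and EFTUD2 overlapped, with exact two-sided permutation p from 0.50 to 1.0. Changes of 1.5-fold lay outside the intervals with the block for all 10 members. Without the block, the main test, the interval of SNRNP40 (−0.52 to 0.72) held such a change.

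The members also differed between replicate numbers. The means of the 3 replicate numbers differed by 0.21 (PRPF8) to 0.72 (SNRNP40) on the log2 scale, with a median of 0.37 over the members and 0.46 over all genes tested. The median size of the log2 fold change with siPrp19 was 0.11 over the members and 0.10 over all genes tested. A range of 3 means and a difference of 2 means are not the same measure, so these sizes are not ranked. By an F-test of the replicate number in the blocked voom fit, an addition made once the data had been seen, 10 of 10 members passed an FDR of 0.05, as did 63.9% of all genes. By limma with the block 9 of 10 did, as did 49.6% of all genes, with EFTUD2 at an adjusted p of 0.0634. The members did not move together. Replicate 3 lay above the mean of replicates 1 and 2 by 0.62 for SNRNP40, 0.39 for TXNL4A and 0.19 for EFTUD2 on the log2 scale. The same difference was −0.44 for PRPF3, −0.34 for PRPF6, −0.32 for SNRNP200 and −0.21 for PRPF8. DDX23, PRPF4 and PRPF31 were highest in replicate 2 and lowest in replicate 1 in both groups. What the replicate number stands for (a culture, a day or a batch) is not given in the sources used here.

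**Figure D4:**
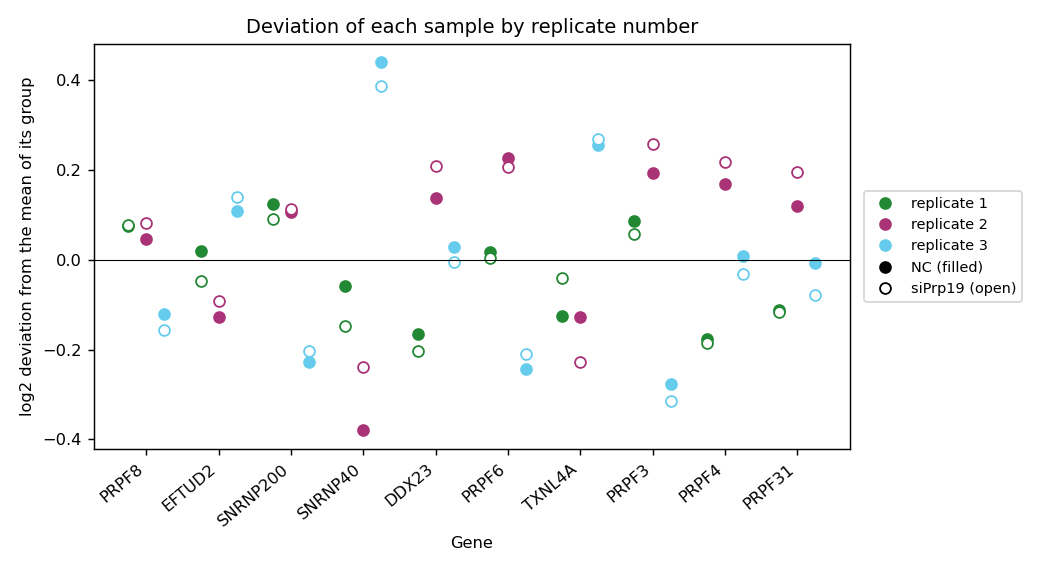
Deviation of each sample from the mean of its own group on the log2(FPKM + 0.1) scale, for NC (filled) and siPrp19 (open), coloured by replicate number. Same-numbered NC and siPrp19 samples lie close together in most genes, and replicate 3 (light blue) is high for SNRNP40 and TXNL4A and low for PRPF3, PRPF6 and SNRNP200.

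The other 6 proteins of the tri-snRNP on the list (SNU13, PPIH, CD2BP2, SART1, USP39 and SNRNP27) had a median log2 fold change of 0.062, from −0.043 to 0.11. None passed the FDR by limma with or without the block, or by voom with the block, which covered 5 of them. Of the 6, 4 were higher in 3 of 3 pairs (19.2% of all genes), with the largest changes in SART1 (0.11), which holds the tri-snRNP together, and PPIH (0.080), the cyclophilin bound to PRPF4. The 14 factors that assemble or recycle the particle had a median of 0.026, and 0 passed in the same fits. Of the 14, 3 were higher in 3 of 3 pairs (19.2% of all genes) and 0 lower (21.3%), shares that set the list little apart as to rises. The largest of these changes were in ECD, which works with the chaperones of U5 assembly, and TXNL4B, a paralog of TXNL4A. Each had a log2 fold change of 0.16, with adjusted p = 0.221 and 0.324 by voom with the block.

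The 16 proteins of U1 and U2, particles that join the spliceosome before the tri-snRNP, had a median log2 fold change of 0.076, from −0.13 to 0.23. Of these, 7 of 16 were higher in 3 of 3 pairs (19.2% of all genes) and 1 lower (21.3%). By voom with the block 2 of 16 passed the FDR, both as higher (2.67% of all genes). They were SF3B2 (0.22, adjusted p = 0.00587) and DDX46 (0.23, adjusted p = 0.00968), the latter the helicase that remodels U2. Whether the U5 and U4/U6 members differ from these genes was not tested. The 5 helicases of the later steps had a median of −0.023, and 0 passed by limma with or without the block, or by voom with the block, which covered 4 of them. Of the 5, 1 was lower in 3 of 3 pairs (21.3% of all genes), AQR (−0.038), and 0 were higher (19.2%). The U4, U5 and U6 RNAs themselves, 12 genes, were listed at 0 to 3.01 FPKM and rested on at most 8 reads in a sample, so their levels could not be read from these libraries.

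**Figure D5:**
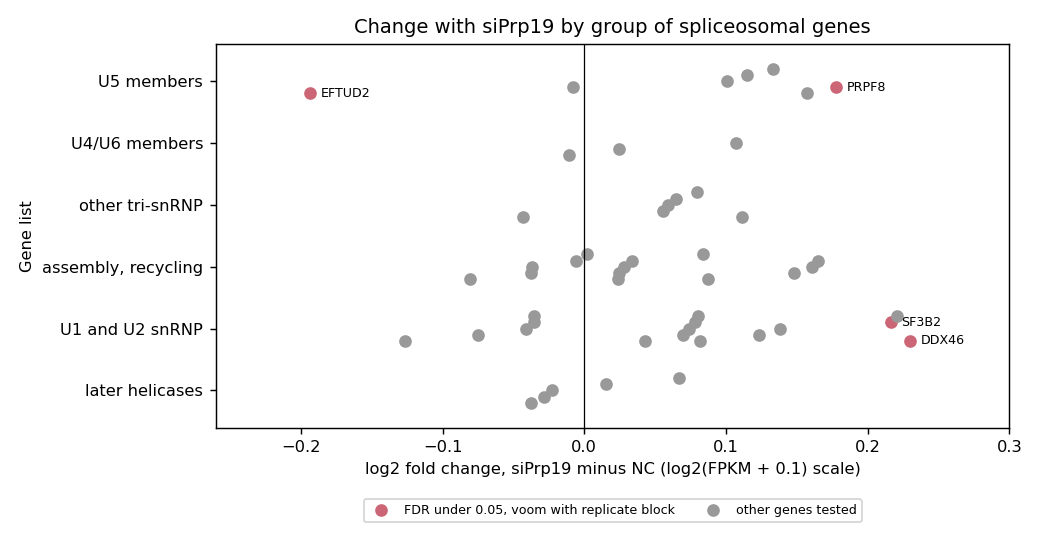
Log2 fold change with siPrp19 of each tested gene of 6 groups of spliceosomal genes, 1 point per gene, with height within a group only separating the points. Red points passed an FDR of 0.05 by voom with the replicate block: PRPF8, SF3B2 and DDX46 to the right of 0 and EFTUD2 to the left.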

How the data were processed

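Libraries of 3 NC and 3 siPrp19 samples of SK-N-BE(2) were made from total RNA with a NEBNext Ultra kit per the labels. How RNA was selected and whether counting used strand are not given in the sources used here. The submitters' processing notes name HISAT2 2.0.5, featureCounts 1.5.0-p3 and build hg38, and the authors deposited FPKM values for 58302 Ensembl genes, 1 table per sample. Median-of-ratios factors of the deposited FPKM were equal in all samples (1.00736), so no further scaling was made.

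Symbols, positions and exon lengths came from GENCODE 29 (GRCh38), which held 58039 of the identifiers. FPKM times exon length gave whole reads, within 0.02, for 95.8% of the genes that were not 0 in every sample, and all 10 members were among them. Limma 3.58.1 (R 4.3.3) was run for genes averaging 1 FPKM or more, on log2(FPKM + 0.1) (eBayes with trend, no block, Benjamini-Hochberg over all genes tested), which understates the change of low genes. The authors used DESeq2 for their own test of expression. Voom on the recovered reads was an alternative, as were a pseudocount of 1, other filters, TPM, quantile normalization, other eBayes settings and each sample left out. Fits on pairs of replicate numbers, the F-test of replicate number and levels per principal transcript were added after the data were seen. The deviations of same-numbered samples from their group means correlated across genes with r = 0.38, 0.57 and 0.64 for numbers 1, 2 and 3, so the replicate number of the labels was also used as a block. The fits were tested on simulated data. The intervals given are limma's, for log2 fold changes. These intervals and the p-values of the fits weigh a change against the spread that the fit leaves between these samples. They therefore differ between fits with and without the block. Figures were made with matplotlib 3.10.9, pandas 2.3.3 and numpy 2.4.6 in Python 3.11.15.

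The members and the gene lists were chosen with earlier results of these data known. All 10 members and PRPF19 were named. From each other list the genes past an FDR of 0.05 by limma or by voom with the block were named, and otherwise up to 2 genes in each direction that changed the same way in 3 of 3 pairs.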

Additional observations from a re-analysis of the deposited data

How the results depend on the processing

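Without the block, 0 genes and 0 members passed the FDR of 0.05, and leaving out each sample in turn gave 0 to 0 for both. The replicate number as a block left both at 0, with a mean r of 0.53 between same-numbered samples. The block on genes averaging 5 FPKM or more gave 124 genes, and limma without trend and robust gave 1. Voom with the replicate block gave 965 genes and 2 members, 1230 and 2 with replicate numbers 1 and 2 alone, 634 and 0 with 1 and 3, and 267 and 0 with 2 and 3, settings added after seeing the data. The cause of these differences was not tested. The median log2 fold change of the members was 0.10, 0.057 with replicate numbers 1 and 3 alone by voom, and 0.032 (without NC replicate 3) to 0.14 (without NC replicate 2) with each sample left out.

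PRPF8, EFTUD2, SNRNP200, DDX23 and PRPF6 kept their direction in all 19 alternatives, while their size moved when 1 sample was left out. The filters, the other eBayes settings and the block in limma cannot change a log2 fold change, so agreement there was fixed in advance. The share of all genes that kept their direction was not computed. The fits with 1 sample left out had no block. Each broke a same-numbered pair, so differences between replicate numbers also entered the change. In them the lowest and highest values were 0.00022 (without NC replicate 3) and 0.22 (without siPrp19 replicate 3) for SNRNP200. For PRPF6 they were 0.035 (without NC replicate 3) and 0.27 (without NC replicate 2). The lowest and highest were 0.029 (without siPrp19 replicate 2) and 0.24 (without siPrp19 replicate 1) for DDX23, with 0.051 without NC replicate 1. PRPF6 stood at 0.053 without siPrp19 replicate 2. PRPF8 ranged from 0.12 (without NC replicate 3) to 0.26 (without siPrp19 replicate 3) and EFTUD2 from −0.26 to −0.14, none of them past the FDR in these fits. The other 5 members turned in some. With quantile normalization TXNL4A stood at 0.0073 and PRPF31 at 0.0021. With pairs of replicate numbers by voom, PRPF31 stood at 0.025 with 1 and 2, and TXNL4A at 0.040 and PRPF4 at −8.74e-05 with 1 and 3. With a sample left out, the lowest and highest values were −0.093 and 0.32 for SNRNP40, −0.14 and 0.12 for TXNL4A, −0.032 and 0.26 for PRPF3, −0.084 and 0.12 for PRPF4, and −0.11 and 0.049 for PRPF31. A pseudocount of 1 and TPM changed no direction of a member, and the filters could not change one. With 0 members called in the main fit, no call could be lost. A pseudocount of 1, TPM and the filters added none, while voom with the block added 2. With replicate numbers 1 and 2 alone it also added 2.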
